A study of Homo sapiens with 4 samples.

Results

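The 47 genes described here are the ligands, antagonists, receptors, SMAD proteins and target genes of the transforming growth factor beta (TGF-β) and bone morphogenetic protein (BMP) pathway, out of 23228 genes counted. They were chosen by symbol from a list drawn up with earlier results of these data known, by a rule that uses no measured value, and all 47 were found in the counts. RNA was measured in samples labelled SKOV3-ALDH+ OCSCs, that is, cells given as the established human ovarian cancer line SKOV3 and sorted for aldehyde dehydrogenase (ALDH) activity as ovarian cancer stem cells and then grown as spheroids. The Vehicle group (2 samples) received the solvent, and the LY500307 group (2 samples) received 5 µM of LY500307, an agonist of estrogen receptor beta (ERβ), each for 24 h. Both groups share the line, the sort and a medium without serum that held the growth factors EGF and bFGF. The line is 1 cancer line, and the labels do not say whether the 2 samples of a group were separate cultures, so p-values measure only the spread between these samples, which may be technical.

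In this pathway a secreted dimer of TGF-β, activin or BMP type brings together type I and type II receptor kinases on the cell surface. The type I receptor then phosphorylates receptor SMADs, SMAD2 and SMAD3 mainly after TGF-β and activin, SMAD1 and SMAD5 mainly after BMP, and these enter the nucleus with SMAD4 to control genes such as ID1, ID2 and ID3. Antagonists outside the cell bind the ligands, and SMAD6, SMAD7, SMURF1, SMURF2, SKI and SKIL dampen the signal inside it. In epithelial cancers TGF-β is known both for restraining proliferation and for promoting the epithelial-mesenchymal transition, while the ID proteins, which lack a DNA-binding region and block basic helix-loop-helix factors, are known from stem cells.

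The bases upstream of the 4 ID genes are shown because these genes are the best known immediate targets of BMP signalling, and 2 of them gave the smallest p-values in the list. Each is the 250 bases before the RefSeq transcript start, 5′ to 3′ on the gene's strand, matched exactly and at 1 place in GRCh37. Capitals mark the letters CAGAC, a core of SMAD-binding elements, or GGTCA, the repeated unit of an estrogen response element, found on either strand.
ID1, chr20:30192842-30193091, plus strand: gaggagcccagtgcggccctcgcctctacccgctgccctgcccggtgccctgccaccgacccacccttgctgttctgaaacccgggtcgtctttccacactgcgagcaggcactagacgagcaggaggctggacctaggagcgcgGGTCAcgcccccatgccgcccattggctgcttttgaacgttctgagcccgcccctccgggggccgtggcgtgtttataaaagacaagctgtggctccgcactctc
ID2, chr2:8821936-8822185, plus strand: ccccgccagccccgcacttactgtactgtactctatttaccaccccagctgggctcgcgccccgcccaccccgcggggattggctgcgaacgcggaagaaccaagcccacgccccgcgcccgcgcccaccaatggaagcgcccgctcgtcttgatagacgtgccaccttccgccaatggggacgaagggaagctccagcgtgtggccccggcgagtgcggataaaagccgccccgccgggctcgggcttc
ID3, chr1:23885993-23886242, minus strand: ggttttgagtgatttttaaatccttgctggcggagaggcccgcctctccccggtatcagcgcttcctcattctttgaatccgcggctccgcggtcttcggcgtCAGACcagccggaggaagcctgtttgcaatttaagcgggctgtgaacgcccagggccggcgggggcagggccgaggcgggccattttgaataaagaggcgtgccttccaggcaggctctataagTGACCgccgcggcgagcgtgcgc
ID4, chr6:19837351-19837600, plus strand: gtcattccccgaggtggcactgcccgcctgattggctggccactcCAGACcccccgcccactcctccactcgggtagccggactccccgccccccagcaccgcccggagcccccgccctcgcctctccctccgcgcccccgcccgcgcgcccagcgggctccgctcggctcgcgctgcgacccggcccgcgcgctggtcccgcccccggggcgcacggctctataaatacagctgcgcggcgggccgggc
Counted back from the transcript start, ID1 had GGTCA with its first base at -105, and ID3 had CAGAC at -147 and the reverse complement of GGTCA at -23. ID4 had CAGAC at -205, and ID2 had neither motif. The ID2 window lies inside the longer span that the GRCh37 annotation gives this gene, since that annotation starts ID2 at base 8818975. Such short motifs are common. CAGAC stood in 38% of 35116 promoter windows of this length and in 38% of the 71 windows found for 40 of the pathway genes. GGTCA stood in 32.6% of all windows and in 29.6% of these 71. GGCGCC, a GC-rich SMAD motif that overlaps neither of the others in its letters, stood in 16.4% and 23.9%, and in none of the 4 windows printed. The full element GGTCANNNTGACC, which holds that unit on both strands, was in 0.0399% of all windows and in 0 of the 71. A match describes these letters only.

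Reads counted on genes ranged from 28841701 to 34943882 per sample. The LY500307 pair differed more than the Vehicle pair, with a chi-square per degree of freedom between gene counts of 36.5 against 4.79, and reads on no gene made up 17.3% of all tallied reads in LY500307 replicate 2 and 19.0% to 20.5% in the others. The sorted cells held EPCAM, at 194 to 240 CPM (a gene's reads relative to all reads counted on genes, with library sizes scaled by edgeR's TMM method), and ERBB2, at 48.7 to 59.4 CPM. KRT19 had 0 to 2 reads and PAX8 had 0 reads in every sample, which allows up to 0.106 CPM for PAX8, and only 3 of the 8 markers set for epithelial ovarian cancer cells had a mean of at least 1 CPM. All 5 fibroblast markers did, with COL1A1 at 182 to 230 CPM, while the summed leukocyte markers stayed between 0.375 and 0.915 CPM and the summed endothelial markers between 0.0334 and 0.371 CPM. The markers thus match the label of an epithelial ovarian cancer line only in part, and whether the cells are SKOV3 was not tested. Of the ALDH genes, ALDH1A2 had 315 to 347 reads per sample, ALDH1A1 134 to 185 and ALDH1A3 8 to 16. ESR2, which encodes ERβ, had 7 to 12 reads per sample, and ESR1 had 0 reads in all 4. In bulk RNA, fewer cells of a type and less RNA per cell cannot be told apart.

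In the pathway 6 of 44 log2 fold changes were beyond 0.5 in size, against 1615 of the 14473 genes tested. The genes with the smallest p-values were the BMP ligand BMP7 and the targets ID1 and ID3, all higher in LY500307-treated OCSCs. Of the 47 genes, 44 passed the expression filter, and INHBB, NOG and GREM1 did not. With edgeR's quasi-likelihood test, 1 of the 44 (2.27%), ID1, met the call rule (a p below 0.05 before adjustment and a log2 fold change beyond 0.5 in either direction), while 4.62% of the 14473 genes tested met it in either direction and 2.76% in the upward direction. An unadjusted p below 0.05 was found for 3 of the 44 (6.82%), all upward, against 11.6% of all genes in either direction and 6.09% upward. The groups did not overlap in 20 of the 44 genes (45.5%), with both LY500307 samples above both Vehicle samples in 12 and below in 8, against 48.6% of all genes in either direction and 24.2% of all genes with LY500307 above. The shares of calls were thus no higher than the background in either direction, and the upward share at a p below 0.05 was close to it. The median log2 fold change was 0.01 for the pathway genes and 0.00 for all genes, and the median absolute log2 fold change was 0.20 and 0.18. No gene in the whole table had an adjusted p below 0.05 with edgeR (smallest 0.422, with 1678 genes at an unadjusted p below 0.05), and DESeq2 gave 16 such genes, 0 of them in the pathway. With 2 samples against 2, an exact two-sided permutation test of a single gene cannot go below 0.333, so each p given rests on spread estimated across genes, and adjusted p-values are edgeR's unless DESeq2 is named.

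**Figure D1:**
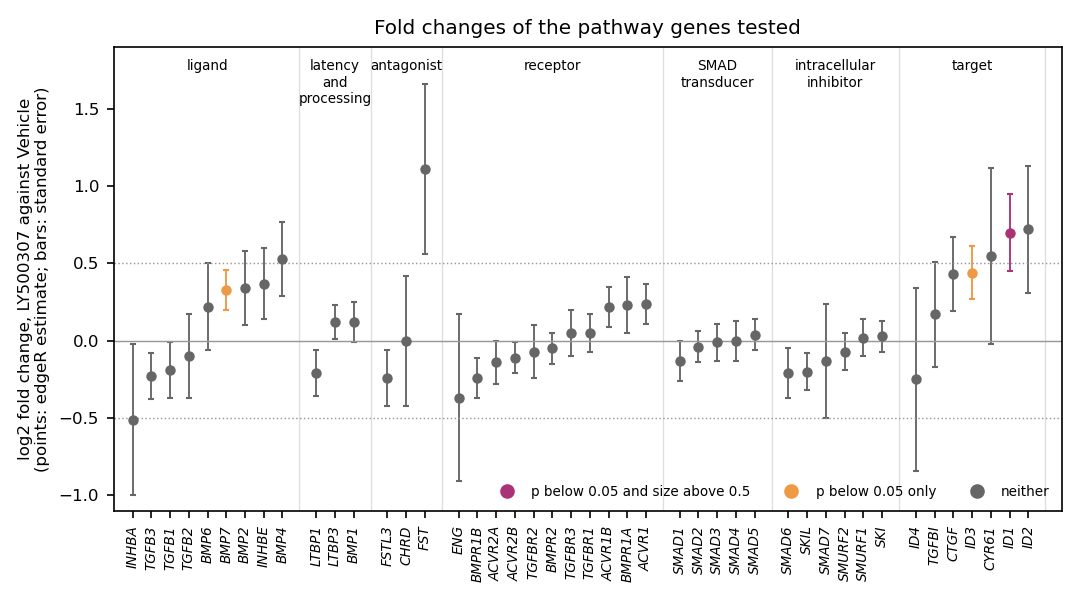
Log2 fold change (y axis, LY500307 against Vehicle) of the 44 pathway genes tested, grouped by role on the x axis; points are edgeR estimates, bars are standard errors, dotted lines mark 0.5 in each direction, and colour marks the p and size. ID1 is the only gene past both limits, receptors lie between -0.37 and 0.24, and SMAD transducers between -0.13 and 0.04.

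Among the ligands, all 4 BMP genes were higher in both LY500307 samples than in both Vehicle samples, as were 24.2% of all genes tested, while the 3 TGF-β genes had negative estimates. BMP7, which encodes a BMP with roles in kidney and epithelial development, had 16.7 and 16.6 CPM in Vehicle and 21.1 and 20.8 CPM in LY500307. The 2 samples of each group were nearly equal and the groups did not overlap. Its mean was 16.7 ± 0.100 CPM (SD, n = 2) and 21.0 ± 0.191 CPM (SD, n = 2), and its log2 fold change was 0.33 with a standard error of 0.13 (adjusted p = 0.428 with edgeR). The unadjusted p was below 0.05 with edgeR but not with DESeq2. In edgeR it was also above 0.05 with the replicate block, the GC correction, both together and a block of crossed replicate numbers. The estimate was 0.34 without Vehicle replicate 1 and 0.32 without Vehicle replicate 2. Over the alternatives run the estimate stayed between 0.24 and 0.37. BMP7 lies on the minus strand of chromosome 20 of GRCh37, from 55743809 to 55841697. BMP4, a ligand that patterns mesoderm, had 79 and 91 reads in Vehicle and 148 and 135 in LY500307, or 2.64, 3.20, 4.26 and 4.18 CPM. Both treated samples were above both controls, with the highest estimate of the 9 ligands tested, 0.53 with a standard error of 0.24 (adjusted p = 0.431), past the fold limit but short of the p limit. BMP2 had 3.60 and 2.99 CPM in Vehicle and 4.32 and 4.05 CPM in LY500307, with a log2 fold change of 0.34, and BMP6 had 2.24, 2.01, 2.56 and 2.38 CPM in the same order, with 0.22. The BMP6 gene overlaps TXNDC5 on the opposite strand, so its reads are uncertain where the counting did not use strand. The median log2 fold change of the 4 BMP genes was 0.34, and no test was run over the group.

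TGFB1, the most abundant TGF-β ligand per length in these cells, had 45.1 and 47.3 CPM in Vehicle and 48.8 and 32.4 CPM in LY500307. The treated samples lay on either side of the controls, and the log2 fold change was -0.19 with a standard error of 0.18 (adjusted p = 0.666). TGFB2 followed the same order, with 4.37 and 4.96 CPM in Vehicle, 5.30 CPM in LY500307 replicate 1 and 3.37 CPM in replicate 2. TGFB3 had 13.9 and 16.1 CPM against 12.7 and 12.9 CPM, so that its groups did not overlap, with a log2 fold change of -0.23 (adjusted p = 0.532). TGFB1 overlaps HNRNPUL1 on the opposite strand. Among the activin and inhibin subunits, INHBA had 27 and 18 reads in Vehicle and 19 and 17 in LY500307, with a log2 fold change of -0.51 and a standard error of 0.49. INHBE had 7.31 and 7.99 CPM in Vehicle and 7.95 and 11.9 CPM in LY500307, so only replicate 2 stood above the controls. INHBB had 2 to 11 reads per sample and was not tested. Per kilobase of the canonical transcript, mean Vehicle levels of the ligands were highest for TGFB1 (16.6 CPM per kilobase), TGFB3 (4.38) and BMP7 (4.15), the last 2 close to each other, and lowest for INHBB (0.0682).

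**Figure D2:**
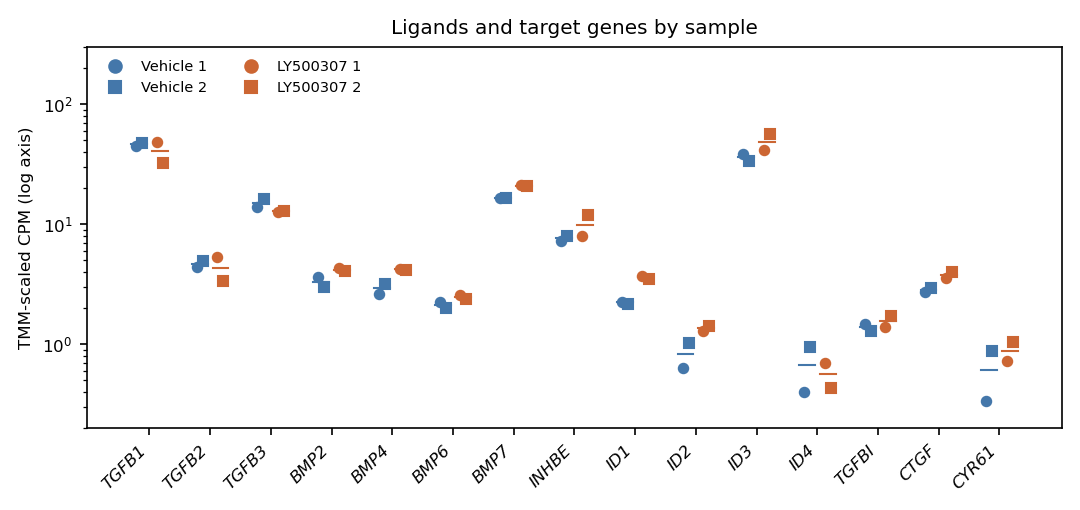
CPM (y axis, log scale) of 8 ligand genes and the 7 target genes in each sample; blue is Vehicle, orange is LY500307, circles are replicate 1, squares are replicate 2, and short lines are group means. The 4 BMP genes, ID1, ID2, ID3 and CTGF have both orange points above both blue points, as do 24.2% of all genes tested, while TGFB1 has its orange points at 48.8 and 32.4 CPM, on either side of the blue ones.

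Genes that hold ligands latent or release them had small estimates. LTBP1 and LTBP3 encode latent TGF-β binding proteins, which tether the latent complex to the matrix. LTBP1 had 19.3 and 20.5 CPM in Vehicle and 15.6 and 18.9 CPM in LY500307, and LTBP3 had 50.3 and 52.8 CPM in Vehicle and 53.3 and 58.7 CPM in LY500307. Neither pair of groups overlapped, and the log2 fold changes were -0.21 (adjusted p = 0.563) and 0.12 (adjusted p = 0.647). BMP1, a protease that cuts procollagen and the BMP antagonist chordin, had 29.9, 26.8, 29.7 and 31.9 CPM, with overlapping groups and a log2 fold change of 0.12.

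The secreted antagonists chosen as pathway genes were low apart from FSTL3. Among antagonist genes of the other lists described below, FSTL1 and TWSG1 were more abundant than FSTL3. FSTL1 had 301 and 283 CPM in Vehicle and 287 and 356 CPM in LY500307. TWSG1 had 87.8 and 94.4 CPM in Vehicle and 82.9 and 84.3 CPM in LY500307. The remaining antagonist genes of those lists had at most 9.61 CPM, reached by DCN in Vehicle replicate 2. FST encodes follistatin, which binds activin, and had 12 and 8 reads in Vehicle and 31 and 19 in LY500307. Both treated samples were above both controls, but its log2 fold change of 1.11, the largest of the 44, had a standard error of 0.55 and an adjusted p of 0.445. FSTL3, a follistatin-like activin antagonist, had 301 and 275 reads in Vehicle and 313 and 248 in LY500307, which on the CPM scale did not overlap (means ± SD of 9.86 ± 0.260 and 8.35 ± 0.952 CPM, n = 2 each, log2 fold change -0.24, adjusted p = 0.563). CHRD, which encodes chordin and overlaps THPO on the opposite strand, had 30, 27, 28 and 37 reads and a log2 fold change of 0.00. NOG, which encodes noggin, had 2 to 5 reads per sample, and GREM1, which encodes gremlin, had 0 reads in Vehicle replicate 1, allowing up to 0.100 CPM there, and 7 to 10 in the others. At these depths differences in NOG and GREM1 were not detectable.

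None of the 11 receptor genes had a p below 0.05, and their log2 fold changes lay between -0.37 and 0.24 with a median of -0.05. BMPR1B, a type I BMP receptor, had 21.6 and 21.3 CPM in Vehicle and 18.2 and 18.1 CPM in LY500307. The groups did not overlap and each pair was tight, and the log2 fold change was -0.24 with a standard error of 0.13 (adjusted p = 0.469), the smallest p of the receptors. ACVR1 and ACVR1B, type I receptors for BMP and activin ligands, went the other way. ACVR1 had 25.4 and 22.9 CPM against 26.9 and 29.9 CPM (log2 fold change 0.24, adjusted p = 0.477), and ACVR1B had 22.4 and 24.6 CPM against 26.1 and 28.5 CPM (0.22, adjusted p = 0.502). In both genes the treated samples were above the controls. ACVR2B, a type II activin receptor, had 108 and 104 CPM in Vehicle and 93.2 and 104 CPM in LY500307, barely apart, with a log2 fold change of -0.11. TGFBR1, the type I TGF-β receptor, had 103 and 102 CPM in Vehicle and 95.6 and 117 CPM in LY500307. Its treated samples lay on either side of the controls (0.05, standard error 0.12).

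The remaining receptors all overlapped between groups. TGFBR2, the type II TGF-β receptor, had 11.4, 14.0, 11.9 and 12.3 CPM, and the co-receptor TGFBR3 had 14.2, 15.9, 15.8 and 15.3 CPM, in the order of Vehicle and LY500307 replicates. BMPR2, the type II BMP receptor, ranged from 77.3 to 85.3 CPM, BMPR1A from 18.3 to 25.7 CPM with its highest value in LY500307 replicate 2, and ACVR2A from 19.3 to 23.9 CPM. ACVR2A overlaps ORC4 on the opposite strand. ENG, which encodes the endothelial co-receptor endoglin, had 14 to 29 reads per sample. Per kilobase, mean Vehicle levels of the receptors ran from 15.8 CPM per kilobase for TGFBR1, 8.99 for ACVR2B and 7.24 for ACVR1 down to 0.248 for ENG.

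**Figure D3:**
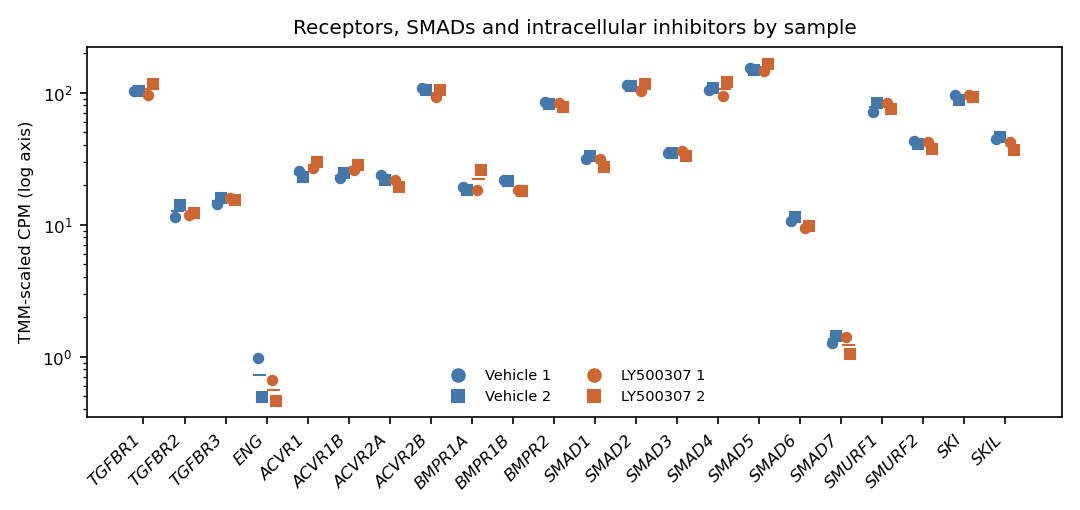
CPM (y axis, log scale) of the 11 receptor genes, 5 SMAD transducers and 6 intracellular inhibitors in each sample; blue is Vehicle, orange is LY500307, circles are replicate 1, squares are replicate 2, and short lines are group means. The points of most genes overlap between groups; BMPR1B has both orange points (18.2 and 18.1 CPM) below both blue ones (21.6 and 21.3 CPM).

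The SMAD transducers were the tightest of the 7 role groups, with log2 fold changes from -0.13 to 0.04 and overlapping groups in all 5. SMAD5, a BMP receptor SMAD, had 154 and 149 CPM in Vehicle and 146 and 165 CPM in LY500307 and was the highest of them per length (21.6 CPM per kilobase in Vehicle). SMAD5 overlaps SMAD5-AS1 on the opposite strand. SMAD4, the shared partner SMAD, had 105 and 108 CPM in Vehicle and 93.4 and 120 CPM in LY500307, one treated sample on each side of the controls, with a log2 fold change of 0.00 and a standard error of 0.13. SMAD1, the other BMP receptor SMAD of the list, had 31.2 and 33.2 CPM against 31.5 and 27.4 CPM (-0.13, adjusted p = 0.677). The TGF-β and activin SMADs, SMAD2 and SMAD3, had log2 fold changes of -0.04 and -0.01, each with a standard error of at most 0.12. The level of SMAD2 per length depends on the choice of transcript, since its canonical transcript has 34626 bases, and is not ranked here.

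The 6 intracellular inhibitors, of which several are themselves induced by TGF-β or BMP, had log2 fold changes between -0.21 and 0.03 and none with a p below 0.05. SKIL, a SMAD corepressor, had 44.2 and 46.1 CPM in Vehicle and 42.0 and 36.6 CPM in LY500307. The groups did not overlap, and its log2 fold change was -0.20 with a standard error of 0.12 (adjusted p = 0.503). SMAD6, an inhibitory SMAD that acts mainly on BMP signalling, had 10.6 and 11.5 CPM against 9.36 and 9.75 CPM and also did not overlap (-0.21, adjusted p = 0.580). SMAD7, an inhibitory SMAD that acts on both branches, had 38, 41, 49 and 34 reads, with a log2 fold change of -0.13. SKI, the other corepressor, had 95.3 and 88.2 CPM in Vehicle and 95.6 and 92.3 CPM in LY500307 (0.03). The ubiquitin ligases SMURF1 (71.5, 83.7, 82.7 and 75.1 CPM) and SMURF2 (42.9, 40.5, 41.9 and 37.6 CPM) had log2 fold changes of 0.02 and -0.07. They overlap TRRAP and CEP95 on the opposite strand. The highest of these per length were SKI, at 15.1 CPM per kilobase in Vehicle, and SMURF1, at 13.7.

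The target genes had the highest median log2 fold change of the 7 role groups, 0.44. Positive estimates were found for 6 of 7, against 7233 of all 14473 genes tested. ID1 had 68 and 62 reads in Vehicle and 129 and 113 reads in LY500307, or 2.27, 2.18, 3.72 and 3.50 CPM. Both treated samples were well above both controls. The mean was 2.23 ± 0.0618 CPM (SD, n = 2) in Vehicle and 3.61 ± 0.156 CPM (SD, n = 2) in LY500307, and the log2 fold change was 0.70 with a standard error of 0.25 (adjusted p = 0.422 with edgeR). DESeq2 gave the same log2 fold change with an adjusted p of 0.484 and an unadjusted p above 0.05, so the call was made by edgeR and not by DESeq2. The call was also lost without Vehicle replicate 1 (0.72), without Vehicle replicate 2 (0.67) or without LY500307 replicate 1 (0.65), each by its p, while the estimate stayed between 0.55 and 0.74 under every alternative run. ID1 lies on the plus strand of chromosome 20 of GRCh37, from 30193086 to 30194318, and its upstream bases printed above hold 1 GGTCA and no CAGAC.

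ID3, the most abundant of the 47 genes per length, had 38.5 and 33.5 CPM in Vehicle and 41.2 and 56.2 CPM in LY500307. The treated samples were above the controls, replicate 1 by little and replicate 2 by more. The mean was 36.0 ± 3.49 CPM (SD, n = 2) and 48.7 ± 10.7 CPM (SD, n = 2), and the log2 fold change was 0.44 with a standard error of 0.17 (adjusted p = 0.422 with edgeR), short of the fold limit. DESeq2 gave an adjusted p of 0.317, and its unadjusted p was also below 0.05. In edgeR with all 4 samples, the unadjusted p was above 0.05 with the GC correction alone (log2 fold change 0.34) and with the length correction (0.29). The estimate was also 0.34 without Vehicle replicate 2. Against both Vehicle samples the log2 fold change was 0.20 with LY500307 replicate 1 alone and 0.65 with replicate 2 alone, so the size of this difference rested on replicate 2. The ID3 estimate passed the fold limit without Vehicle replicate 1 (0.54) or without LY500307 replicate 1 (0.65). It stayed below that limit without Vehicle replicate 2 or without LY500307 replicate 2. ID3 lies on the minus strand of chromosome 1, from 23884417 to 23885992, and reached 37.9 CPM per kilobase in Vehicle and 51.3 in LY500307.

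ID2 had 19 and 29 reads in Vehicle and 45 and 46 in LY500307, with groups apart and a log2 fold change of 0.72 with a standard error of 0.41 (adjusted p = 0.484). ID4 had 12, 27, 24 and 14 reads and overlapped, with a log2 fold change of -0.25 and a standard error of 0.59. Both treated samples were above both controls in 3 of the 4 ID genes, against 24.2% of all genes tested, and ID4 was too low to place. CTGF, a matrix-associated protein gene that TGF-β and YAP induce, had 81 and 83 reads in Vehicle and 124 and 129 in LY500307. The groups did not overlap, and the log2 fold change was 0.43 with a standard error of 0.24 (adjusted p = 0.477). CYR61, of the same CCN family, had 10, 25, 25 and 34 reads, and TGFBI, which encodes a TGF-β-induced matrix protein, had 44, 37, 48 and 56. Both overlapped between groups, with log2 fold changes of 0.55 (standard error 0.57) and 0.17 (standard error 0.34).

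Other genes of the pathway were taken from lists written from general knowledge. Of 126 such genes 97 were tested, and 1 (1.03%) met the call rule, against 4.62% of all genes. An unadjusted p below 0.05 was found for 10 of the 97 (10.3%), 7 upward and 3 downward, against 11.6% of all genes, and groups did not overlap in 52 (53.6%) against 48.6%.

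Of the 24 other induced targets tested, 3 had a p below 0.05 upward and 3 downward, with a median log2 fold change of 0.02. The upward ones included TIMP1, a metalloproteinase inhibitor, with 318 and 346 CPM in Vehicle and 442 and 451 CPM in LY500307 (0.43), and the collagen gene COL1A1, with 182 and 190 CPM against 222 and 230 CPM (0.28). The downward ones were ZEB1, a repressor that drives the epithelial-mesenchymal transition (124 and 133 CPM against 113 and 85.9 CPM, -0.37), KLF10, an early TGF-β response gene (41.9 and 45.6 CPM against 38.3 and 30.2 CPM, -0.35), and BHLHE40 (137 and 139 CPM against 124 and 105 CPM, -0.27). In each of the 3 downward genes LY500307 replicate 2 was the lowest sample. COL1A1 is also one of the 5 fibroblast markers, whose summed level was 266 and 274 CPM in Vehicle and 309 and 311 CPM in LY500307. Of the other 4, THY1 and PDGFRB overlapped between groups and DCN and LUM were lower in both treated samples, with log2 fold changes from -0.20 to 0.23 over the 4. The part of cell composition in the target genes was not tested.

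Of the 11 other ligand genes tested, 2 had a p below 0.05. GDF15, a stress-induced divergent member of the family, was far above the other ligands per length (583 CPM per kilobase in Vehicle) and had 710 and 689 CPM in Vehicle and 902 and 1017 CPM in LY500307, which gave a log2 fold change of 0.46 with a standard error of 0.11 (adjusted p = 0.422). BMP3 had 12.8 and 11.3 CPM against 14.8 and 17.6 CPM (0.42, adjusted p = 0.428). FBN1, which encodes the fibrillin that anchors latent complexes, had 313 and 312 CPM against 367 and 403 CPM (0.30, adjusted p = 0.422). Of the 11 other latency and activation genes tested, 9 had positive estimates, against 7233 of all 14473 genes, and no test was run over the list. USP11, a deubiquitinase reported to act on TGF-β receptors, had 89.3 and 91.3 CPM against 104 and 116 CPM (0.29, adjusted p = 0.422). In GDF15, BMP3, FBN1 and USP11, named for their p, both treated samples were above both controls, as in 24.2% of all genes tested. USP11 was the only one of 29 SMAD partners and regulators with a p below 0.05. Of the 29, 21 had negative estimates, against 7240 of all 14473 genes, and the median was -0.08.

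In the other lists no gene had a p below 0.05, and the smallest p belonged to genes with few reads or small changes. The receptor gene ACVRL1 had 7, 11, 20 and 26 reads (1.15, standard error 0.57), and the antagonist gene CER1 had 22, 32, 17 and 22 (-0.67, standard error 0.49). AXL, of the YAP-type target list, had 44.7 and 39.8 CPM against 46.4 and 50.6 CPM (0.20). All 8 genes of that list that were tested, WISP1 among them, stayed between -0.05 and 0.23.

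The 2 LY500307 samples were unlike each other in part of the pathway, as they were across all genes. They differed by over 0.5 on the log2 scale in 6 of the 44 genes (13.6%), TGFB1, TGFB2, INHBE, FST, ID4 and CYR61, and in 16.7% of all genes. The Vehicle pair did so in 4 of the 44. Taken alone against both Vehicle samples, the 2 LY500307 samples had estimates of opposite sign in 15 genes (34.1%), against 31.7% of all genes. TGFB1 was 0.08 with replicate 1 and -0.51 with replicate 2, and TGFB2 was 0.19 and -0.46, so their negative estimates came from replicate 2 alone. The BMP genes did not divide in this way. BMP7 was 0.34 and 0.32, BMP4 was 0.55 and 0.52, and BMP2 was 0.39 and 0.30. ID1 was 0.74 and 0.65, and ID2 was 0.65 and 0.79. Replicate 2 was also the library with the lowest share of reads on no gene, and the part of that difference in these values was not tested.

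**Figure D4:**
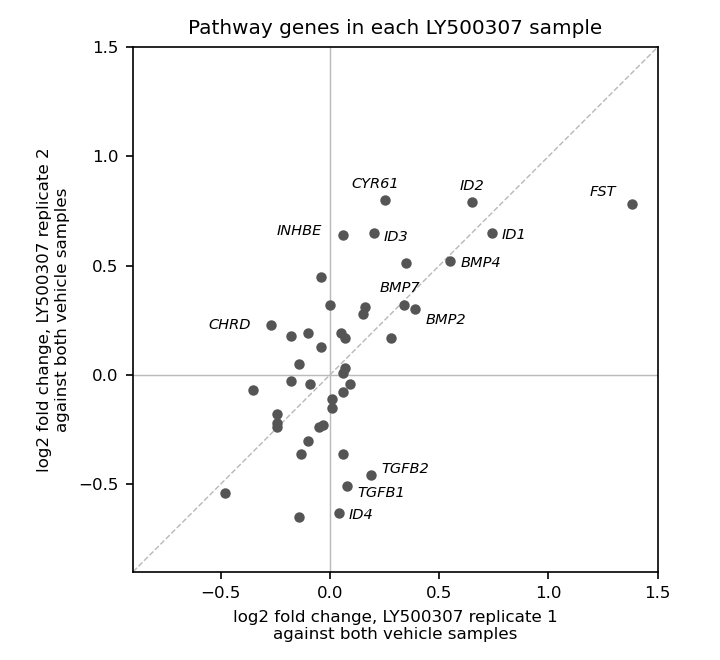
Log2 fold change of LY500307 replicate 1 (x axis) and of LY500307 replicate 2 (y axis), each against both Vehicle samples, for each pathway gene tested; points are genes, the dashed line marks equal values, and solid lines mark 0. BMP7, BMP4 and ID1 lie near the dashed line, while TGFB1 (0.08 and -0.51) and INHBE (0.06 and 0.64) lie far from it; both axes share the Vehicle samples.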

How the data were processed

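RNA-seq counts of 4 samples (2 Vehicle, 2 LY500307) were analysed, grouped by the treatment label. Per the submitters' processing notes, bcl2fastq, TopHat2 2.0.8b, HTSeq and hg19 were used; no strand setting is given in the sources used here. The labels describe total RNA libraries, and the study's methods describe stranded mRNA libraries. The authors deposited raw counts per gene symbol, without normalization. Tally lines for reads outside genes (50.0% to 54.4% of each file's total) were left out.

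All genes were tested together in R 4.3.3 with edgeR 4.0.16 (TMM, filterByExpr, quasi-likelihood test, Benjamini-Hochberg adjustment). The standard error is the absolute log2 fold change divided by the square root of F. The pathway genes, the other lists and the tests were chosen with earlier results of these data known. Each pathway gene is accounted for. The naming rule fixed genes with p below 0.05, the smallest p and the 2 highest levels per length in each role group, and, of the other pathway genes, those with p below 0.05 or the smallest p of a list. Further genes were named after their values were seen. Some genes under the rule are not reported here. Lengths and positions came from a GENCODE annotation of GRCh37, which matched 90.5% of 23228 symbols, 2097 by an older symbol. Promoters came from RefSeq (GRCh38.p14) and were placed in GRCh37 by exact match. The procedure was tested on simulated data. DESeq2 1.42.0, other scalings and filters, GC and length corrections (loess, span 0.3), a replicate block and leaving out each sample were the alternatives. Floors cover counting error only, and a floor is 3 counts per library.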

Additional observations from a re-analysis of the deposited data

How the results depend on the processing

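ID1 was the 1 pathway gene that met the call rule. The number was 0 with DESeq2, with the length correction and with the GC correction and replicate block together, and 2 (BMP4 and ID1) with library totals alone or with all genes of at least 1 count. It ranged from 0 to 3 with a sample left out, where the group with a lone sample is assumed to vary like the other. Without LY500307 replicate 1 the 3 genes were ID3, INHBE and TGFB1, and without Vehicle replicate 2 there were 0. Pathway genes with an unadjusted p below 0.05, 3 in the reported test, were 1 with DESeq2, 1 with the GC correction, 1 with the length correction and 0 to 10 with a sample left out, the lowest without Vehicle replicate 2 and the highest without LY500307 replicate 1. The adjusted p of ID1 ranged from 0.183 to 0.986, that of ID3 from 1.68e-08 (without LY500307 replicate 1, where 5002 genes had an adjusted p below 0.05 and the spread came from the Vehicle pair alone) to 0.986, and that of BMP7 from 0.0793 to 0.986. The other pathway genes met the call rule in 1 case, in 2 with the GC correction, in 2 with the GC correction and replicate block, and in 1 to 6 with a sample left out. Those with a p below 0.05 were 10, 6 with the replicate block and 2 to 30 with a sample left out. Calls over all genes went from 669 to between 352 (without LY500307 replicate 2) and 1987 (without LY500307 replicate 1). The upward share of calls was 59.8%, 69.7% with library totals alone, 48.2% with the GC correction and replicate block, and 42.0% without LY500307 replicate 2. What caused them to differ was not tested.

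Estimates close to 0 changed sign. CHRD, slightly below 0, was 0.00 with DESeq2, 0.04 with library totals alone, 0.00 with all genes of at least 1 count, 0.01 with the length correction and -0.27 to 0.23 with a sample left out. SMAD4 was -0.01 with the replicate block and with the crossed block, SKI was -0.08 with the GC correction alone or with the replicate block, and SMURF1 was -0.04 with either. With a sample left out the ranges were -0.18 to 0.18 for SMAD4, -0.02 to 0.09 for SKI, -0.08 to 0.14 for SMURF1, -0.51 to 0.08 for TGFB1, -0.10 to 0.19 for TGFBR1 and -0.04 to 0.13 for SMAD5. Of the other values recomputed, 409 kept their direction and side of the limit.

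Same-numbered samples deviated together with a correlation of -0.07 over the 14473 genes tested and of -0.23 over the 7236 genes above the median level. Neither value was positive, which gave no sign of pairing by number but cannot exclude it. The replicate block left 1 pathway gene called and 2 with a p below 0.05, and 1 gene of all with an adjusted p below 0.05. The crossed block, chosen after seeing the data, left 1 called and 2 with a p below 0.05, with 381 genes of all at an adjusted p below 0.05. Depth limits INHBA, INHBB, NOG, GREM1, CHRD, FST, ENG, ID4 and CYR61, which had at most 37 reads in any sample.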
